A study of Ooceraea biroi with 96 samples.

Results

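The 100 genes with the steadiest messenger RNA level in the brain of the clonal raider ant, Ooceraea biroi, were taken from 13755 annotated genes counted in 96 libraries. Each gene's count was expressed as CPM, its share of the library's total count times 1000000. Genes with a mean below 50 CPM were set aside, as were the 100 genes with the highest median CPM, which left 3642 eligible genes. The 100 with the lowest coefficient of variation (CV, the SD divided by the mean over all 96 libraries) are called the members here. The members were chosen by this measured CV, so their low spread and the small size of any age or genotype difference in them follow from the choice and are given as description.

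Each library came from the brain of 1 ant. The ants differed in their own genotype (B or M), in the social environment they were kept in (also B or M) and in age (1 or 8 days). BinM stands for a genotype B ant in social environment M, and the other names follow the same order. The day 1 libraries comprised 7 BinB, 9 BinM, 14 MinB and 20 MinM individuals, and the day 8 libraries 10 BinB, 10 BinM, 12 MinB and 14 MinM individuals. The labels do not give the colony of each individual, so p-values measure the spread between these libraries. Libraries of the different ages also carry titles of different forms, and a difference in handling between ages, if there was one, cannot be told apart from age. In whole brains, fewer cells of a type and less RNA per cell cannot be told apart either.

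Reference genes, often called housekeeping genes, are genes whose transcripts are assumed to keep a near constant share of a tissue's RNA, so that the level of other genes can be expressed relative to them. They are the common denominator in quantitative PCR, and several are usually combined as a geometric mean because any single gene can respond to a condition. A share of RNA is always relative: when a few very abundant transcripts take up less of a library, every other transcript takes up more, and the choice of scaling decides which genes appear to stand still. The annotation used here pairs these genes with locus symbols and gives no product names, so no role is assigned to any of them and the tissue label could not be checked against cell type markers.

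Library totals ran from 10695583 to 26955040 counts. In all, 9 libraries, 3 at day 1 and 6 at day 8, correlated less with the rest of their group than the others did (mean correlation of log2 CPM more than 3 scaled median absolute deviations below the median of their age). They were kept. The same rule without them retained 73 of the 100 members. Overlapping genes were counted with a strand setting that the sources used here do not give, so levels of members that overlap another gene are uncertain.

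The members spanned a mean level of 52.9 to 979 CPM with a median of 175 CPM, against a median of 125 CPM over the eligible genes. Divided by exon length in kilobases, their level ran from 9.02 RPKM for LOC105278639 to 141 RPKM for LOC105283149, with a median of 37.1 RPKM. Their CV lay between 4.62% and 7.36% with a median of 6.68%, whereas the median over all eligible genes was 16.1%. Members were found at all levels from near the floor up to 979 CPM, and 42 eligible genes had a mean above that of the highest member.

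**Figure D1:**
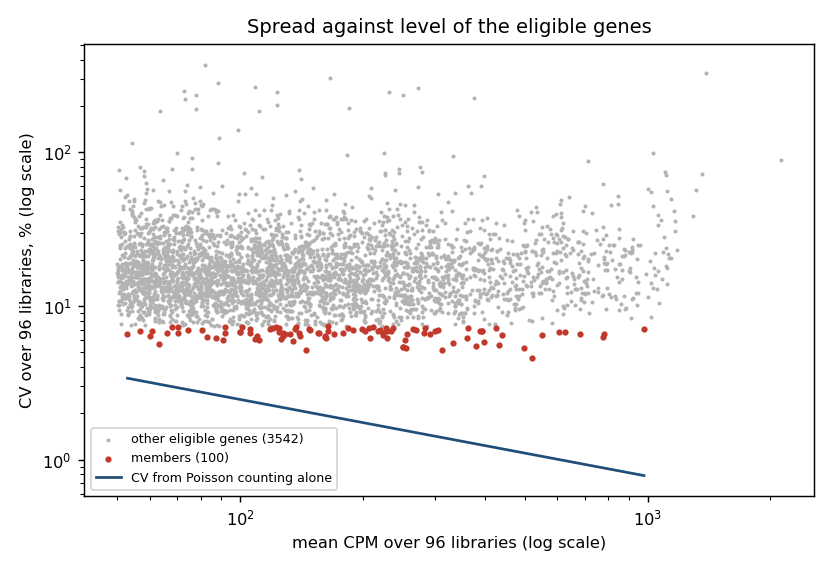
CV over 96 libraries (percent, log scale) against mean CPM (log scale) for the 100 members (red) and the other eligible genes (grey), with the CV that Poisson counting alone would give at each member's level and these depths (blue line). The members fill the lower edge of the cloud from 52.9 to 979 CPM and all lie above the counting line.

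Counting error made up little of the remaining spread. Poisson sampling at these depths would give the members a CV of 0.787% to 3.39%, and it made up a median of 8.24% of a member's variance, with a maximum of 29.8% in LOC105274590. The ratio of the highest to the lowest library was between 1.27 and 1.71, with a median of 1.42. Differences between the 8 groups took up a median of 14.9% of a member's variance (range 2.08% to 60.9%), and differences between the ages a median of 4.82% (up to 56.1%). Most of the variation left in most members was thus between individuals of the same group, where the median SD was 0.0898 on the log2 scale.

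LOC105281422 (chromosome 3, 3928846 to 3952634, 28 exon blocks; coordinates throughout are those of the deposited table) had the lowest CV of all, 4.62%. At day 1 it ran from 444 CPM through a median of 520 CPM to 567 CPM in 50 libraries. At day 8 it ran from 439 CPM through 525 CPM to 569 CPM in 46 libraries. The ages overlapped almost completely, and the lowest library, MinB day 8 replicate 8, was also the library in which the most members were displaced. Differences between the 8 groups made up 4.34% of its variance.

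LOC105285219 (chromosome 4, 16444761 to 16450820) was second with a CV of 5.17%. It ran from 117 CPM through 144 CPM to 172 CPM at day 1 and from 133 CPM through 147 CPM to 160 CPM at day 8. The day 8 values lay inside the day 1 range. Its exons overlap a gene on the other strand. LOC105276924 (chromosome 3, 10622026 to 10633185) came next with a CV of 5.20% and a range of 266 to 355 CPM over all libraries.

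After these came LOC105282654 (CV 5.29%), LOC105282205 (5.35%), LOC105284918 (5.37%), LOC113562050 (5.38%) and LOC105286495 (5.48%). LOC105280083 (5.56%) and LOC105274590 (5.68%) closed the first 10. These 10 genes ranged in mean level from 63.1 CPM in LOC105274590 to 522 CPM in LOC105281422. In one of them a large part of the spread was between the ages: in LOC105286495 the age difference made up 45.3% of the variance. It ran from 360 CPM through 391 CPM to 435 CPM at day 1 and from 328 CPM through 364 CPM to 410 CPM at day 8, so the median was lower at day 8 although the ranges overlapped.

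The limit of the list fell in a dense part of the distribution. The last members were LOC105277662 with a CV of 7.29%, LOC105274769 with 7.33% and LOC105283541 with 7.36%. The first genes left out were LOC105276804 with 7.36%, LOC105278778 with 7.39% and LOC105279601 with 7.41%. Membership near rank 100 therefore separates genes of practically equal spread. The member with the highest mean level was LOC105279849 at 979 CPM (CV 7.09%) and that with the lowest was LOC105283647 at 52.9 CPM (CV 6.56%).

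All 100 members are annotated as protein coding, as are 99.6% of the eligible genes, and the members lie on all 14 chromosomes. Chromosome 7 held 14 members, chromosome 11 held 12 and chromosome 4 held 11, against 10.1%, 7.94% and 8.51% of the eligible genes. Only 1 pair of members, LOC113562050 and LOC105281864 on chromosome 6, are neighbours. The members' median exon length was 4812 bases against 4161.5 bases over the eligible genes, and they had a median of 11 exon blocks against 9. No member had a single exon block, as 43 of the eligible genes (1.18%) did. The exons of 33 members overlap another gene, which is the case for 24.5% of the eligible genes.

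Whether low spread carries over to libraries that had no part in the choice was examined by applying the same rule within 1 age and measuring the chosen 100 genes at the other. The list chosen in the 50 day 1 libraries had a median CV of 6.26% in the 46 day 8 libraries, where the eligible genes had a median of 11.8%. All 100 genes of that list stayed below the eligible median, and their highest CV was 10.8%. The list chosen at day 8 had a median CV of 6.56% at day 1, where the eligible median was 12.6%, and 96 of its 100 genes stayed below that median. Choice by genotype gave a like picture: the list from genotype B had a median CV of 7.05% in genotype M (eligible median 16.1%), and the list from genotype M had 6.58% in genotype B (eligible median 15.5%).

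**Figure D2:**
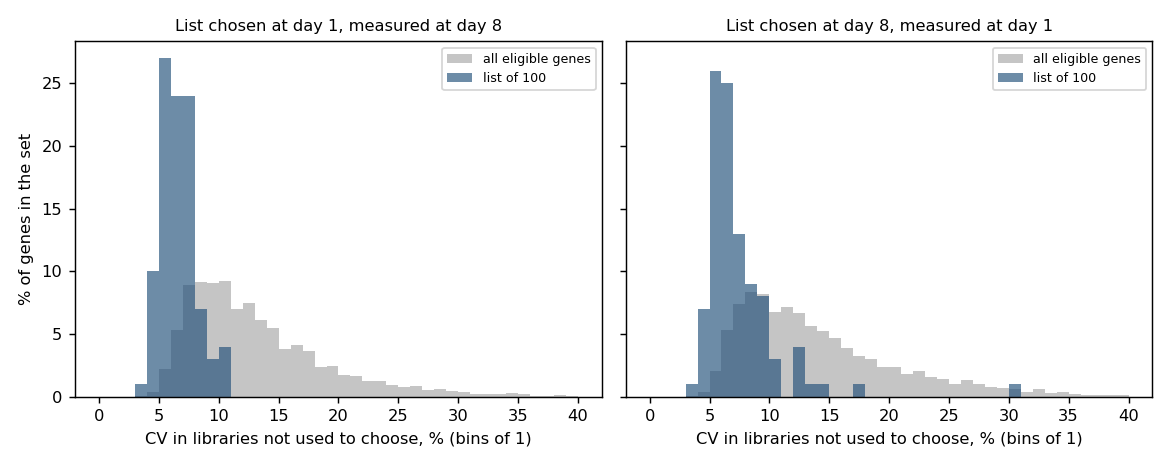
Distribution of the CV (percent, bins of 1) in libraries not used for the choice, for lists of 100 genes chosen at 1 age (blue) and for all eligible genes (grey); values above 40% are not drawn. The day 1 list reached 10.8% at most at day 8, whereas the day 8 list had a gene at 30.5% at day 1.

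The 4 exceptions show what a choice at a single age can miss, and they are named after their values were seen. LOC105284482 had a CV of 5.36% at day 8 and of 30.5% at day 1, where it ran from 482 CPM through a median of 702 CPM to 1590 CPM. LOC105285196 went from 6.02% to 17.6%, LOC105277720 from 5.90% to 14.4% and LOC105276542 from 4.93% to 13.3%. None of these 4 is among the 100 members. The exons of LOC105285196 and LOC105276542 overlap another gene.

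The identity of the steadiest genes was less stable than their spread. The day 1 and day 8 lists shared 37 of their 100 genes, and the genotype B and M lists shared 53. Of the 100 members, 44 were in the day 1 list, 43 in the day 8 list, 27 in both and 40 in neither. A group of 18 members was in all 4 of these lists, and it included the first 11 members by rank. Within single groups the members' median CV was between 5.17% in BinM day 8 and 6.51% in MinB day 8. At least 95 of the 100 members were below the eligible median in each of the 8 groups.

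On library totals, the scale that chose them, the members' geometric mean had a lower spread than any member alone. It was between 173 and 191 CPM in all 96 libraries, a ratio of 1.10 between the highest and the lowest. Its SD was 0.0266 on the log2 scale, which is 1.86%. At day 1 it averaged 184 ± 3.55 CPM (SD, n = 50) and at day 8 186 ± 3.03 CPM (SD, n = 46). The ages overlapped and the day 8 to day 1 ratio was 1.01. The choice of the members used both ages, so nothing is read from this ratio.

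How many genes such a reference needs was read from the lists chosen at 1 age and measured at the other. All values were on library totals, the scale that chose the lists, and SDs of these lists under other scalings are not given here. The SD of the geometric mean at day 8 was 4.29% with the first gene of the day 1 list, 2.98% with 3 genes, 2.86% with 5, 2.20% with 10, 2.42% with 30 and 1.82% with all 100. In the opposite direction it was 6.25% with 1 gene, 3.15% with 3, 2.99% with 5, 2.93% with 10, 2.38% with 30 and 2.27% with 100. In both directions the largest step was from 1 gene to 3. These SDs were taken within the measured age and leave out any shift between the ages. For all 100 genes of the day 1 list, the log2 geometric mean at day 8 minus that at day 1 was 0.06. For the day 8 list, the value at day 1 minus that at day 8 was -0.08. Both lists were thus higher at day 8. Each shift was larger than the log2 SD in the measured age, 0.0260 and 0.0323.

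The scaling changed the age pattern of the joint level. TMM scaling, which sets the trimmed mean of the log ratios of most genes to 0, gave the members a geometric mean of 193 ± 6.10 CPM (SD, n = 50) at day 1 and of 177 ± 3.34 CPM (SD, n = 46) at day 8. The ratio of day 8 to day 1 was then 0.921 and the SD over all libraries rose to 0.0709 on the log2 scale. Within an age, the log2 SD under TMM was 0.0457 at day 1 and 0.0272 at day 8. On library totals it was 0.0279 and 0.0238. The mean TMM factor was 0.958 at day 1 and 1.05 at day 8. The 100 most abundant genes, which the rule left out, took 18.5% ± 0.713 (SD, n = 50) of all counts at day 1 and 17.3% ± 0.472 (SD, n = 46) at day 8. Their part in the difference between the scalings was not tested.

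**Figure D3:**
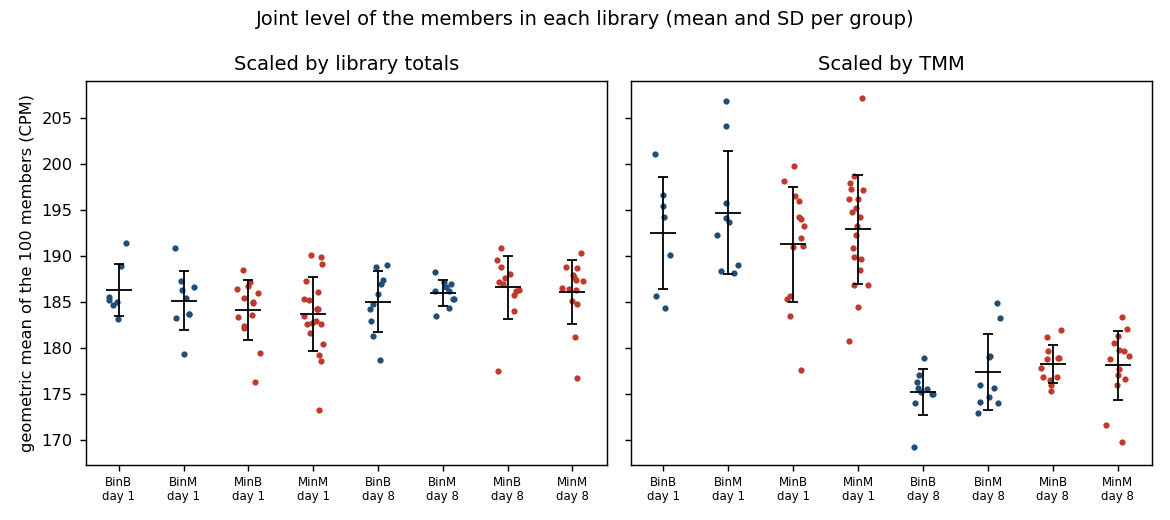
Geometric mean of the 100 members in each library (CPM) by group, scaled by library totals (left) and by TMM (right); points are libraries of genotype B (blue) or M (red) ants, and bars are the mean and SD of a group. On library totals all groups lie at 173 to 191 CPM, and on TMM the day 1 groups average 193 CPM and the day 8 groups 177 CPM.

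Under TMM almost every member was lower at day 8, although none by much. In edgeR's quasi-likelihood test over 10056 genes, with Benjamini-Hochberg adjusted p under 0.05, 90 of 100 members were called lower at day 8 and 0 higher. Over all genes tested 73.1% were called, 37.6% higher and 35.4% lower. The members' median log2 fold change (day 8 over day 1) was -0.12 against 0.01 over all genes. Since the choice used both ages, nothing is read from the count.

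On library totals the same test called 50 members, 27 higher and 23 lower, against 75.9% of all genes (51.6% higher and 24.4% lower). The members' median log2 fold change was 0.02 and that of all genes 0.14. Relative to the median of all genes the members were thus 0.13 lower on the log2 scale under either scaling. A change of scaling moves all genes by nearly the same amount, so the likeness of these gaps was fixed in advance. The members were chosen for a steady level on library totals over both ages, so nothing is read from the gap or the counts. Scaled by the members' own geometric mean, 48 were called, 23 higher and 25 lower, against 75.7% of all genes (50.7% higher and 25% lower). On the unfitted scale of library totals, the day 8 to day 1 ratio of the members lay between 0.90 and 1.11, and 72 members were within 5% and 95 within 10% of 1.

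**Figure D4:**
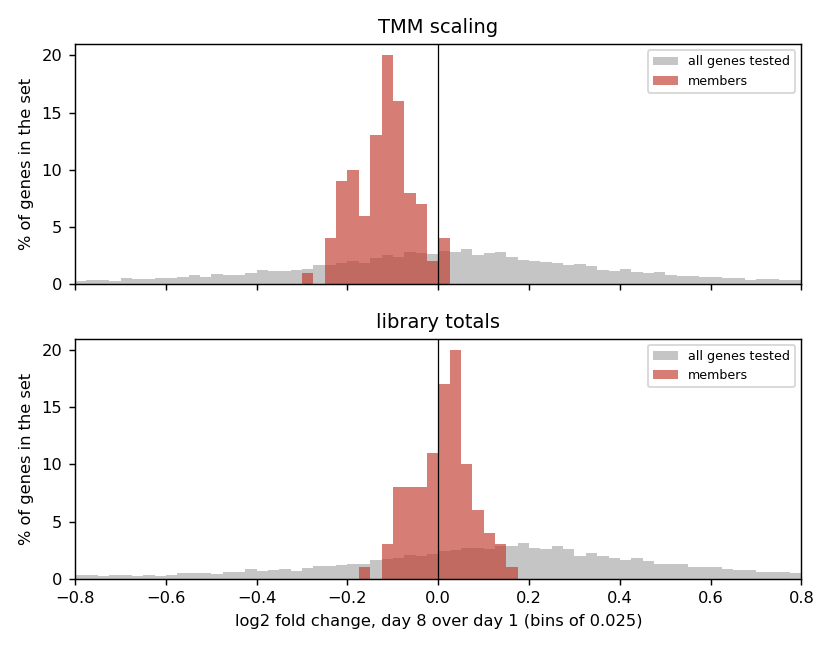
Share of the members (red) and of all 10056 genes tested (grey) by log2 fold change from day 1 to day 8 in bins of 0.025, under TMM (top) and library totals (bottom); fold changes beyond 0.8 in either direction are not drawn. The members form a narrow peak with a median of -0.12 under TMM and 0.02 on library totals, to the left of the broad distribution of all genes in both.

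LOC105280434 (chromosome 1, 3668351 to 3700229) had the most negative age difference among the members. On library totals it ran from 177 CPM through a median of 199 CPM to 218 CPM at day 1 and from 151 CPM through 180 CPM to 191 CPM at day 8. Every one of the 46 day 8 libraries lay below the day 1 median, and the 56.1% of variance between ages was the largest share of any member. Its log2 fold change was -0.29 ± 0.02 (SE) under TMM and -0.15 ± 0.02 on library totals. LOC105281503 and LOC105288194 followed, with -0.25 ± 0.02 and -0.24 ± 0.02 under TMM and -0.12 ± 0.02 and -0.11 ± 0.02 on library totals.

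At the other end were the members with the largest positive age log2 fold changes under TMM, none of them called there. LOC105287070 (chromosome 9, 10710064 to 10715325) ran from 249 CPM through 269 CPM to 294 CPM at day 1 and from 272 CPM through 297 CPM to 327 CPM at day 8 on library totals. The day 8 libraries were higher, with overlap. Its log2 fold change was 0.15 ± 0.01 on library totals and 0.02 ± 0.02 under TMM, and without the 9 libraries that stood apart it was called higher under TMM as well, at 0.03. LOC105277235 (0.15 ± 0.02 on library totals, 0.02 ± 0.02 under TMM) and LOC105280669 (0.15 ± 0.02 and 0.02 ± 0.02) showed the same shift. All 10 members without a call under TMM were called higher on library totals.

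Which genes were steadiest depended on the scaling. Choosing the 100 lowest CVs from TMM-scaled CPM retained 29 of the members. The TMM list had a median age log2 fold change of 0.01 under TMM, with 48 genes called (73.1% of all genes). On library totals the median was 0.14, with 94 called (75.9% of all genes). That list was chosen by low spread under TMM over both ages, so nothing is read from these counts. LOC105287070, rank 44 by library totals, had the lowest CV of all on TMM, 4.89%. LOC105281422 fell from rank 1 to rank 49, with a CV of 6.69%, and remained in both lists.

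Age was then tested in libraries that had no part in the choice. Of the list chosen in genotype B, 72 genes were called for age in genotype M under TMM, 2 higher and 70 lower, where 67.4% of all genes were called (34.9% higher and 32.5% lower). Of the list chosen in genotype M, 82 were called in genotype B, 0 higher and 82 lower, where 64.8% of all genes were called (32.1% higher and 32.6% lower). On library totals the counts were 54 (39 higher and 15 lower, against 72% of all genes called, 50.1% higher and 21.9% lower) and 38 (17 higher and 21 lower, against 67.1%, 45.6% higher and 21.5% lower). Scaled by the members they were 56 (35 higher and 21 lower, against 71.3%, 48.1% higher and 23.2% lower) and 39 (17 higher and 22 lower, against 67.2%, 45.7% higher and 21.5% lower). Both ages were used to choose each of these lists, so the genotypes are independent and the ages are not.

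The sizes of these differences were mostly below those of all genes. The median size of the age log2 fold change was 0.10 in the genotype B list and 0.15 in the genotype M list under TMM, against 0.25 and 0.28 over all genes. On library totals it was 0.06 and 0.05 against 0.28 and 0.31. Under TMM the median SE was 0.03 in each list, against 0.06 and 0.08 over all genes, which include genes below 50 CPM. The sizes were not compared at like level or precision. The largest differences were 1.24-fold in the genotype B list and 1.35-fold in the genotype M list under TMM. On library totals their largest log2 fold changes were 0.26 and 0.28 in size.

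Fewer members were called for genotype than for age. The members were chosen by low spread over both genotypes and both ages, so these counts are description. The genotype tests used 50 and 46 libraries, and the age test used 96. At day 1, 9 members were called between genotype M and B under TMM, 4 higher and 5 lower in M, against 14.8% of all genes (7.24% higher and 7.52% lower). At day 8, 5 members were called, all higher in M, against 8.45% of all genes (4.16% higher and 4.29% lower). On library totals the counts were 10 at day 1 (4 higher and 6 lower, against 13.5% of all genes, 6.42% higher and 7.07% lower) and 3 at day 8 (2 higher and 1 lower, against 7.95%, 3.32% higher and 4.63% lower). Scaled by the members they were 9 at day 1 (6 higher and 3 lower, against 13.5%, 7.66% higher and 5.8% lower) and 3 at day 8 (1 higher and 2 lower, against 8.22%, 3.22% higher and 5% lower). The largest member difference under TMM was 0.13 on the log2 scale at each age. Under TMM a single member was called at both ages, and 13 members were called at either. The shares of all genes called at both ages or at either are not given here, so nothing is read from these counts.

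LOC105281307 (chromosome 3, 2296407 to 2301458) had the largest positive difference at day 1. It ran from 137 CPM through a median of 150 CPM to 163 CPM in genotype B and from 147 CPM through 163 CPM to 181 CPM in genotype M. The median of M was at the highest value of B, and the ranges overlapped. Its log2 fold change (M over B) was 0.13 ± 0.02 (SE) at day 1 and 0.03 ± 0.03 at day 8, where genotype B ran from 140 to 178 CPM and M from 146 to 182 CPM. LOC105278151 was similar at day 1, with a median of 162 CPM in B and 178 CPM in M and a log2 fold change of 0.12 ± 0.03.

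LOC105276065 and LOC105281645 were lower in genotype M at day 1, and the exons of both overlap a gene on the other strand. LOC105276065 ran from 639 CPM through 710 CPM to 802 CPM in B and from 592 CPM through 647 CPM to 736 CPM in M at day 1. At day 8 its medians were 690 CPM in B and 687 CPM in M. Genotype M was lower at day 1 and close to B at day 8, and the genotypes overlapped at both ages.

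LOC105281645 (chromosome 2, 5492373 to 5502473) was the member called at both ages under TMM, in opposite directions. At day 1 it ran from 144 CPM through 161 CPM to 174 CPM in B and from 128 CPM through 146 CPM to 162 CPM in M. At day 8 it ran from 125 CPM through 140 CPM to 161 CPM in B and from 126 CPM through 149 CPM to 166 CPM in M. Genotype B was thus the higher at day 1 and the lower at day 8, with overlap at both ages. The log2 fold change was -0.13 ± 0.03 at day 1 (edgeR adjusted p = 0.00843) and 0.09 ± 0.03 at day 8 (edgeR adjusted p = 0.0462). The day 8 call was near the threshold and was not kept under other scalings. On library totals the 2 members called higher in M at day 8 were LOC105280060 and LOC105275814. Scaled by the members, the only 1 was LOC105280060. The difference between the ages was 0.21 ± 0.04.

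**Figure D5:**
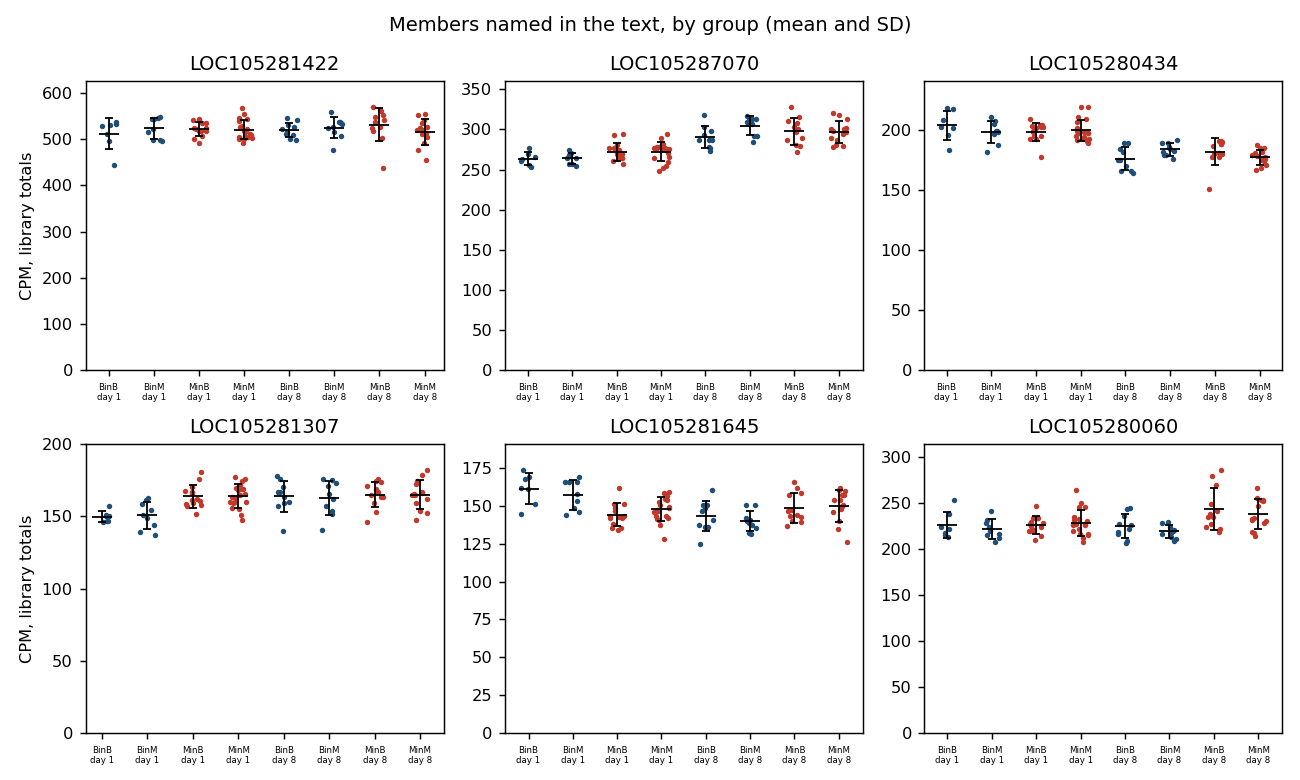
CPM on library totals in each library for 6 members, by group (genotype B blue, genotype M red; bars are the group mean and SD; axes start at 0). LOC105281422 is level over all groups, LOC105287070 is higher and LOC105280434 lower at day 8, LOC105281307 is lower in genotype B at day 1, LOC105281645 changes order between ages and LOC105280060 is higher in genotype M at day 8.

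In all, 6 members were called for a genotype difference that changed with age, all 6 with a larger M over B ratio at day 8, against 6.39% of all genes (3.85% in that direction and 2.55% in the other). They were LOC105281645, LOC105288218 (0.16 ± 0.04), LOC105275012 (0.15 ± 0.04), LOC105276065 (0.15 ± 0.04), LOC105281600 (0.12 ± 0.04) and LOC105275814 (0.09 ± 0.03). On library totals 4 members were called, all in the same direction, against 4.97% of all genes (2.76% in that direction and 2.21% in the other). Scaled by the members 8 were called, 4 in each direction, against 5.38% of all genes (2.03% with a larger ratio at day 8 and 3.35% with a smaller one), so the single direction was not kept there. Without the 9 libraries that stood apart, 3 members were called under TMM, where the share of all genes was 1.64%.

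The lists chosen at 1 age allow a genotype test at the other that the choice did not use. Of the day 1 list, 7 of 100 genes were called at day 8, all 7 higher in M, against the 8.45% of all genes. Of the day 8 list, 13 were called at day 1, 5 higher and 8 lower in M, against the 14.8% of all genes. Both shares were near those of all genes tested. On library totals the counts were 8 (5 higher and 3 lower, against 7.95%) and 13 (6 higher and 7 lower, against 13.5%), so the one-sided direction at day 8 was not kept there. Scaled by the members they were 8 (5 higher and 3 lower, against 8.22%) and 13 (9 higher and 4 lower, against 13.5%). The median size of the log2 fold change was 0.03 in the day 1 list (0.08 over all genes) and 0.05 in the day 8 list (0.10 over all genes). The median SE was 0.03 in each list and 0.07 over all genes in each test, and all genes include those below 50 CPM. The sizes were not compared at like level or precision, so a smaller genotype effect is not read from them.

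Of those 7 genes, 3 are members. LOC105280060 (chromosome 2, 15170207 to 15179306) ran from 206 CPM through 221 CPM to 245 CPM in genotype B (n = 20) and from 215 CPM through 235 CPM to 286 CPM in genotype M (n = 26) at day 8. Genotype M was higher, with overlap, and the log2 fold change was 0.13 ± 0.03 (edgeR adjusted p = 0.00177). LOC105275814 (0.08 ± 0.02, edgeR adjusted p = 0.0046) and LOC105284918 (0.08 ± 0.03, edgeR adjusted p = 0.0489) were the others. On library totals LOC105284918 was no longer called (edgeR adjusted p = 0.0924).

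The largest difference in that list was in LOC105283743, which is not a member and is named after its values were seen. It was rank 68 in steadiness at day 1. At day 8 it ran from 163 CPM through 189 CPM to 202 CPM in B and from 201 CPM through 230 CPM to 250 CPM in M. The genotypes barely overlapped, and the log2 fold change was 0.30 ± 0.03 (edgeR adjusted p = 7.14e-13). Low spread over both genotypes at day 1 thus went with a 1.23-fold difference at day 8.

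Of the 13 genes of the day 8 list called at day 1, 3 are members. LOC105276065 had a log2 fold change of -0.13 ± 0.04 (edgeR adjusted p = 0.0136), LOC105285913 of -0.08 ± 0.03 (edgeR adjusted p = 0.0468) and LOC105276462 of -0.07 ± 0.02 (edgeR adjusted p = 0.0346). All 3 were lower in M. On library totals LOC105276462 was not called (edgeR adjusted p = 0.0963). The exons of LOC105276462 overlap another gene, as do those of LOC105276065.

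No member differed between social environments past the test. With edgeR 0 of 100 members were called at day 1, where 0.0102% of all genes were called, and 0 at day 8, where 0% were. At an unadjusted p under 0.05 there was 1 member at each age. DESeq2 and limma-voom also called 0 at either age, with 1 and 1 members at an unadjusted p under 0.05 at day 1 and 4 and 1 at day 8.

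Intervals show how large a difference these data leave room for. The 95% interval of the fold change lay within 1.1-fold of no difference for 89 of 100 members between genotypes at day 1, for 94 between genotypes at day 8, for 97 between environments at day 1 and for 100 between environments at day 8. The shares of all genes were 17.5%, 21.9%, 24.2% and 30.4%. For age under TMM the interval lay within 1.1-fold for 30 members, against 10.9% of all genes. Within 1.25-fold of no difference, it did so for 100 of 100 members in each of the 5 comparisons, whereas the share of all genes was 59.9%, 66.7%, 68.3%, 75.2% and 40.8%. The choice by low spread makes such intervals narrow, so nothing is read from these counts.

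Displaced values were concentrated in a few libraries. A library's median deviation of the members from their own means was between 2.50% and 11.1%. The number of members more than 20% away from their mean was 17 in MinB day 8 replicate 8, 15 in BinB day 1 replicate 9 and 12 in MinM day 1 replicate 16, and its median over libraries was 0. All 3 were among the libraries that stood apart. MinM day 1 replicate 16 was the lowest library for 16 members, and MinB day 8 replicate 8 was both the lowest for 11 and the highest for 11. Without the 9 libraries that stood apart, the SD of the geometric mean was 1.62%.

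The members did not vary as a block. After removing group means, the mean correlation over their 4950 pairs was 0.08 (range -0.58 to 0.68, across 96 libraries that share depth and scaling), 91 pairs were above 0.5 and the first principal component held 13.6% of the variance. The steadiest ratio was that of LOC105286495 to LOC105280434, with an SD of 0.06 on the log2 scale (4.12%), smaller than the spread of either gene alone. Both were lower at day 8. The next was LOC105281422 to LOC105276924, with an SD of 0.07 (5.27%). Against all other members, LOC105285219, LOC105281422, LOC105282654, LOC105276924 and LOC105275350 had the lowest mean SD of log2 ratios, between 0.11 and 0.12.

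Over these comparisons, 41 members had no call for age on library totals, nor under TMM for genotype, environment or genotype by age. They included 7 of the first 10. Of the 41, 8 were also in all 4 lists chosen within an age or a genotype, and 5 of those do not overlap another gene: LOC105281422, LOC105276924, LOC105282205, LOC105280083 and LOC105277866. With age taken under TMM instead, 9 members had no call, and all 9 were called higher for age on library totals, so 0 members were without a call under both scalings. The members and the 4 lists were chosen by low spread in these same libraries, so nothing is read from these counts. The share of all genes without any such call is not given here.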

How the data were processed

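The authors deposited 1 table of read counts per gene for 96 brain libraries of a stranded messenger RNA kit, per the labels' protocols. Reads were aligned with STAR 2.7.8a and counted with featureCounts, per the submitters' processing notes; the sources used here give neither its strand setting nor its annotation version. Gene class came from the Obir_v5.4 RefSeq gene table, which matched 13556 of 13755 genes by symbol and span. Columns were matched to samples by title.

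The members and every list were chosen with earlier results of these data known. CPM used library totals. Age, genotype and environment were tested with edgeR 4.0.16 (R 4.3.3): TMM scaling, filterByExpr with a minimum count of 10, the robust quasi-likelihood test, and Benjamini-Hochberg adjustment over all genes tested, with calls at adjusted p under 0.05. Age was the mean of the 4 day 8 groups against the 4 day 1 groups. Standard errors were derived from the test's F statistic. On data simulated for the age comparison, 34% of genes changed 1.1-fold and 76% of those changed 1.25-fold were recovered over 10056 genes. The changed genes were drawn at random from all genes tested, not from the members. Alternatives were library totals, DESeq2 1.42.0 size factors, the members' geometric mean, other filters, DESeq2, limma 3.58.1 (voom), and leaving out libraries. Library totals were 10695583 to 26955040 counts. Intervals on counts cover counting error only.

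The named genes were the 10 lowest CVs, the 3 on each side of the limit, the 3 largest age differences in each direction, the 2 largest called genotype differences in each direction at each age, the 5 members with the steadiest ratios to the rest, the members of highest and lowest mean level, and any member called for environment; others are said to be named after their values were seen or are members of a counted call. The planned lists of classical reference genes and cell type markers were not used because the gene table gives no product names. Libraries of one group differed by more than sampling noise: the lowest chi-square per gene between 2 libraries was 9.43.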

Additional observations from a re-analysis of the deposited data

Results flagged for a closer look

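A single library stood apart from the rest of its group in 6 of 116 combinations tested, which paired 28 named members and the members' geometric mean with the 4 groups of 7 to 10 libraries, judged by the gap to its nearest neighbour. Chance flags about 1 in 20 groups, which is 5.8 of 116. In BinM day 1 replicate 4 the highest values were 172 CPM for LOC105285219 (next library 152 CPM) and 298 CPM for LOC105282654 (next 262 CPM), so 1 library gave a pair of these. The lowest value of LOC105288194 in BinM day 8 was 321 CPM in replicate 5 (next 363 CPM). In BinB day 1, LOC105278151 was lowest in replicate 9 at 135 CPM (next 160 CPM), a library that stood apart in the whole profile, and LOC105276065 was lowest in replicate 7 at 649 CPM (next 703 CPM). LOC105283647 was lowest in BinB day 8 replicate 6 at 45.02 CPM (next 52.4 CPM).

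The genotype difference (M over B, log2) changed between day 1 and day 8 in 6 members by edgeR's test of the difference itself, at adjusted p under 0.05 over all genes. The change was 0.209 in LOC105281645, 0.156 in LOC105288218, 0.153 in LOC105275012, 0.152 in LOC105276065, 0.117 in LOC105281600 and 0.0918 in LOC105275814. In LOC105281645 the difference was called in opposite directions at the 2 ages under TMM, and its day 8 call was not kept on library totals. The exons of LOC105281645, LOC105276065 and LOC105281600 overlap another gene, and the part of the overlap in these values was not tested.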

How the results depend on the processing

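Of the settings tried, the scaling moved most. Choosing on TMM-scaled CPM retained 29 members, on DESeq2 size factors 23, by a robust CV 64 and by the mean CV within groups 51; leaving out 1 library at a time retained 92 to 100, the fewest without BinB day 1 replicate 9. The members' median CV was 7.80% on TMM and 8.26% on DESeq2 size factors, and the SD of their geometric mean 0.0709 and 0.0807 (log2). The age count was 50 on library totals and 48 scaled by the members, and the median age log2 fold change turned from negative to 0.0154 and 0.00729. The genotype M list had 38 and 39 genes called for age in genotype B. LOC105287070 changed sign for age with DESeq2 (-0.00137) and its size factors in edgeR (-0.00147), as did LOC105280669 (-0.00349 and -0.00372). DESeq2 called 15 members between genotypes at day 1 (16.96% of all genes), 9 at day 8 (9.95%) and 10 for genotype by age (9.21%); without the libraries that stood apart, edgeR called 3 for genotype by age (1.64% of all genes). The day 8 genotype count was 2 with DESeq2 size factors in edgeR (8.45% of all genes), 3 scaled by the members (8.22%), 3 on library totals (7.95%), 2 without a filter (6.71%) and 3 with the stricter one (7.14%). LOC105288218 at day 8 was past the threshold in the main test and missed it under 7 settings. The causes were not tested.

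Title numbers are shared between groups at day 1 only. The 52 pairs of libraries with one number had correlations of their deviations from -0.55 to 0.70 (median 0.06), with 21 over 0.1. Pairs with other numbers had a median of -0.003. The labels do not say what a number stands for. Whether libraries with one number share a colony or batch cannot be read from these correlations. With the number as a replicate block, 8 members were called between genotypes at day 1 and 0 between environments, and the day 8 list went from 13 genes to 8, where the share of all genes called for genotype went from 14.8% to 10.1%.

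Small differences were often missed in simulated data of these sizes. At day 1, 4% of simulated 1.1-fold genotype differences were recovered over 9834 genes, and 14% at day 8 over 9472. The changed genes were drawn at random from all genes tested, so these shares do not give the rate for the members. At day 1 the median SE was 0.0302 in the members and 0.0735 over all genes.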

Other observations

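The most opposed pair of members within groups was LOC105277584 and LOC105274707, with a correlation of -0.58 over 96 libraries, and 7 of the 4950 pairs were below -0.5. The closest was LOC105285592 and LOC105282384 at 0.68. These pairs were named after their values were seen.

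Members that overlap another gene were called for age under TMM about as often as the rest: 30 of 33 against 60 of 67, where 73.1% of all genes were called. For genotype the counts were 4 of 33 and 5 of 67 at day 1, where 14.8% of all genes were called, and 1 of 33 and 4 of 67 at day 8, where 8.45% were. The differences between these shares were not tested.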
